A study of Mus musculus with 5 samples.

Results

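The Hox cluster genes encode homeodomain transcription factors that stand in 4 chromosomal clusters (A to D) and fall into 13 paralog groups by sequence and position. They were taken from the count table as every row whose symbol is Hox, a cluster letter and a number, which gave 39 genes of 47729 in all. The table holds 5 mRNA libraries, made from right hemispheres of 5-month-old males of the inbred mouse strain C57BL/6. All 5 carry the same labels, which name no treatment or transgene, and form 1 group without a control. They are called animals here although the labels do not state that they came from separate mice, and any spread between them may be technical. Animals are numbered in accession order.

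Hox genes give cells of the embryo their position along the head to tail axis, and their order on the chromosome follows the order of their front limits in the body. In the embryonic central nervous system the low-numbered groups are expressed in the hindbrain behind its first segment, groups with higher numbers begin further back in the spinal cord, and forebrain, midbrain and the segment that forms most of the cerebellum lack them. Part of this pattern persists in adult neurons of pons and medulla. The question put to the libraries was which paralog groups leave a trace in a hemisphere sample, whose cortex, striatum and hippocampus should lack Hox RNA. The labels do not say how much brainstem or cerebellum the samples hold.

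Paralog groups 4 and 5 held the most Hox counts, and homeoboxes (the 180 bases that encode the DNA-binding homeodomain) of members of both are given to show how far these genes differ in sequence. The homeobox of each of the 39 genes lay within 1 exon, and all sequences were read from GENCODE M21 transcripts with positions on GRCm38. The homeoboxes of Hoxa4, Hoxc4 and Hoxa5 are shown, and capitals mark the 64 of 180 bases that are not alike in all 3, against 116 that are.
Hoxa4 (chr6:52190483-52190662, minus strand): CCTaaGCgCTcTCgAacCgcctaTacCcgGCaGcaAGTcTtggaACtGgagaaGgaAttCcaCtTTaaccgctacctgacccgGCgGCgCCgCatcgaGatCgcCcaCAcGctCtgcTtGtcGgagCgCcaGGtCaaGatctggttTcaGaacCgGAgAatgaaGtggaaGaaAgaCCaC
Hoxc4 (chr15:103035663-103035842, plus strand): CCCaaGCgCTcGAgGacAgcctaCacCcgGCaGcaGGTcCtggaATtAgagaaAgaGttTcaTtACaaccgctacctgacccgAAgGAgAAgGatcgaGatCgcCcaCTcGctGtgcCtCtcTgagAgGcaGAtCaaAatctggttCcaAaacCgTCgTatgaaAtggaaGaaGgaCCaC
Hoxa5 (chr6:52202632-52202811, minus strand): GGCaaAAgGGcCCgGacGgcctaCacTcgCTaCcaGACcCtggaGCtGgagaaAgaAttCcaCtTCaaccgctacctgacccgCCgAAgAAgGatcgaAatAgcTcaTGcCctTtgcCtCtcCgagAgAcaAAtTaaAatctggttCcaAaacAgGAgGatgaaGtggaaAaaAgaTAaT
Hoxa4 and Hoxc4, of the same paralog group, were identical at 142 of 180 bases (78.9%), with a longest shared run of 17 bases. Hoxa5 was identical to Hoxa4 at 128 bases (71.1%) and to Hoxc4 at 134 (74.4%). Over all pairs of members the median identity was 80.6% for the 42 pairs within a paralog group and 60.6% for the 699 pairs between groups. Of the 50-base words of each member's transcripts, at most 1.38% occurred in transcripts of genes elsewhere in the genome.

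Hox RNA was close to the limit of detection in every brain. Of the 39 genes, 12 had at least 3 counts summed over the 5 libraries, whereas 77.5% of 21697 protein-coding genes did. At least 1 count was seen for 19 of the 39, against 81.8% of protein-coding genes, and at least 10 counts for 2, against 72.7%. A total of 20 members were at 0 in all libraries, and another 7 had 1 or 2 counts in all. A count of 0 in all 5 libraries allows up to 3 counts, or 0.0421 CPM (counts scaled to library depth). The highest count of any member in any library was 7, and no member had a count in every library, against 72.0% of protein-coding genes. All members together took 79 counts of 71221584, or 1.11 CPM. The tissue itself was read in depth: the neuronal marker Snap25 stood between 349 and 387 RPKM (a level corrected for gene length and library total), the astrocytic Slc1a2 between 292 and 311 and the myelin gene Mbp between 257 and 336, at 13184234 to 15570064 counts a library.

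**Figure D1:**
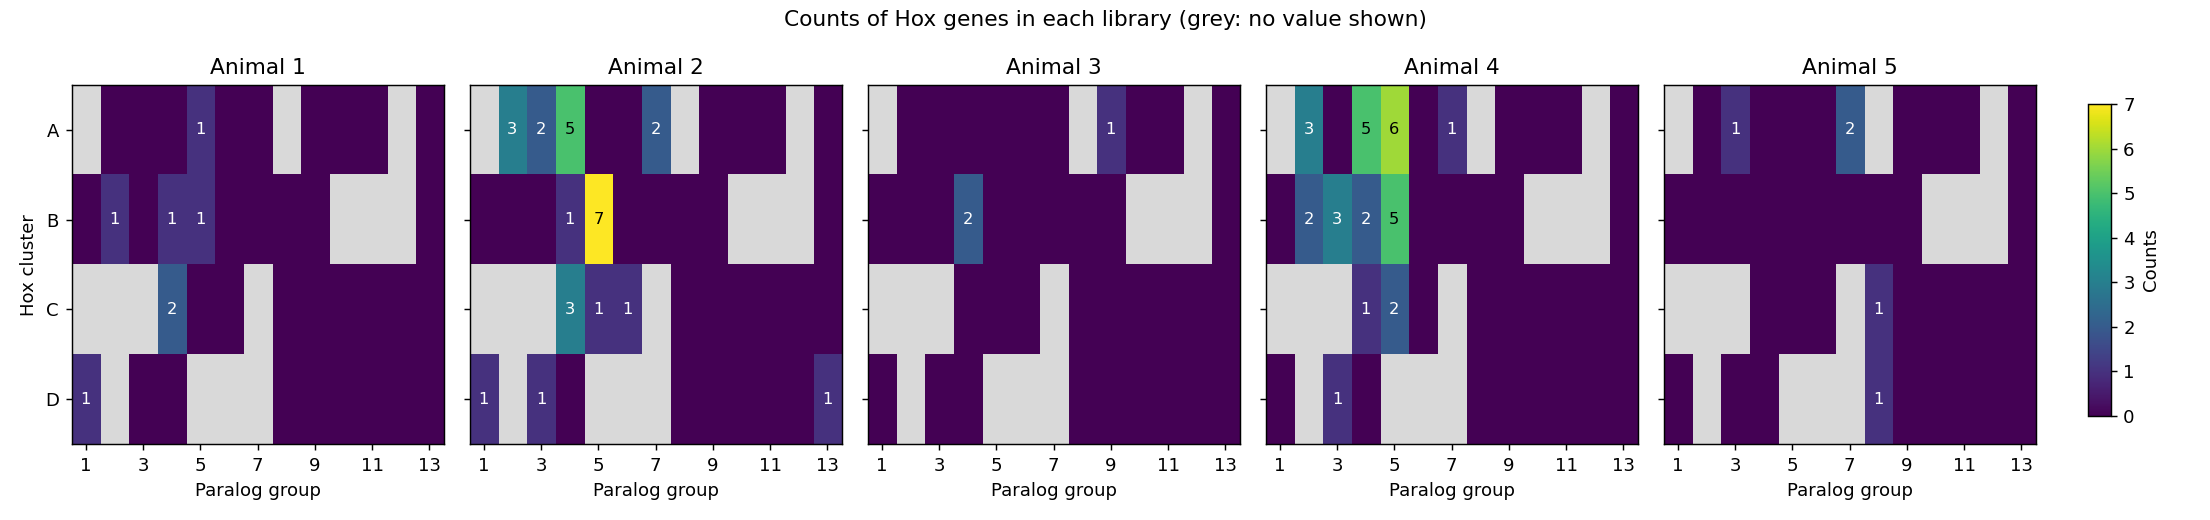
Counts of Hox genes in each of the 5 libraries, one panel per animal, with clusters A to D down the side and paralog groups 1 to 13 along the bottom. Dark cells without a number are 0, grey cells show no value, and most counts stand at groups 1 to 5 in animals 2 and 4.

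The detected members belonged almost entirely to the low-numbered groups. Of the 12 members with at least 3 counts, 11 came from the 15 genes of groups 1 to 5, 1 (Hoxa7, at 5 counts) from the 8 genes of groups 6 to 8 and 0 from the 16 genes of groups 9 to 13. Groups 1 to 5 held 69 of the 79 counts (87.3%, exact 95% binomial interval 78.0% to 93.8%, which covers counting error only), groups 6 to 8 held 8 and groups 9 to 13 held 2. Groups 4 and 5 led with 22 and 23 counts, and groups 1, 2 and 3 had 7, 9 and 8. Per gene length, the share of groups 1 to 5 in the summed Hox level was 100%, 88.1%, 87.2% and 97.5% in animals 1 to 4, and 30.2% in animal 5. In animals 1 to 5 these shares rest on 7 of 7, 26 of 30, 3 of 4, 31 of 32 and 2 of 6 counts. The mean over animals was 80.6% ± 28.7 (SD, n = 5), or 93.2% without animal 5. The share was not tested against other genes, because the members were chosen with results of these libraries known.

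**Figure D2:**
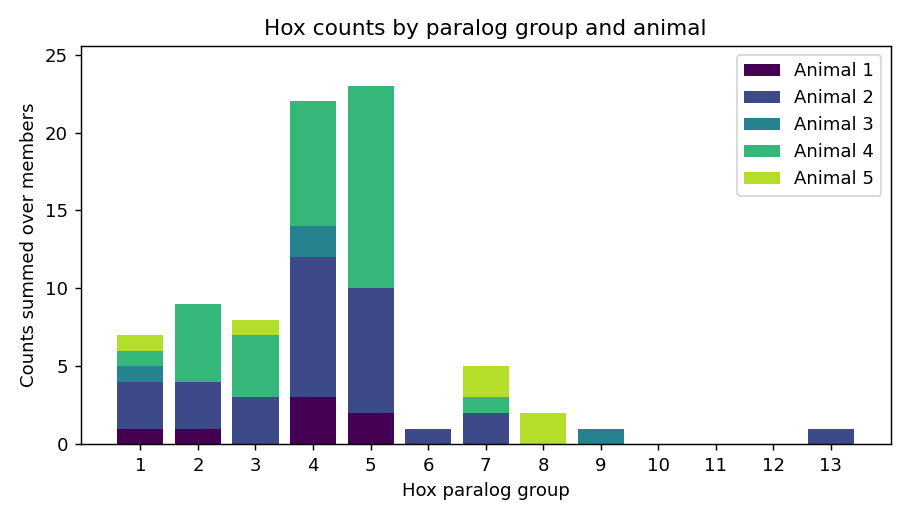
Counts summed over the members of each Hox paralog group (horizontal axis, 1 to 13), with the 5 animals stacked in colour. Groups 4 and 5 reach 22 and 23 counts, and groups 10, 11 and 12 are at 0.

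Hoxb5 and Hoxa4 were the 2 members with at least 10 counts, and both were read almost only in animals 2 and 4. Hoxb5 (ENSMUSG00000038700, GRCm38 chromosome 11, 96303336 to 96306121, plus strand), which in the embryo is expressed from the caudal hindbrain backwards, had 1, 7, 0, 5 and 0 counts in animals 1 to 5. Per length these are 0.0268, 0.169, 0, 0.115 and 0 RPKM, with a mean of 0.0622 ± 0.0761 (SD, n = 5). Animals 2 and 4 were high, animal 1 had a single count and animals 3 and 5 had none. Hoxa4 (ENSMUSG00000000942, chromosome 6, 52189671 to 52191753, minus strand) had 5 counts in animal 2, 5 in animal 4 and 0 in each of the other animals. Its levels were 0.211 RPKM in animal 2 and 0.201 in animal 4, and its mean was 0.0824 ± 0.113 (SD, n = 5). Where a library has 0 counts, up to 3 are allowed, which is 0.193 to 0.228 CPM.

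Among the other members of groups 4 and 5, the RNA was spread differently over the brains. Hoxa5 (chromosome 6, 52201754 to 52204587), which in mouse is needed for the development of respiratory circuits and lung, had 6 counts in animal 4, 1 in animal 1 and 0 in animals 2, 3 and 5. Hoxb4 had 1, 1, 2, 2 and 0 counts in animals 1 to 5, and Hoxc4 had 2, 3, 0, 1 and 0. These 2 genes were not confined to animals 2 and 4. Hoxc5 had 1 count in animal 2 and 2 in animal 4. Hoxd4 was at 0 in all 5 libraries, and 52.3% of its exon bases overlap other annotated genes, among them Hoxd3.

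Groups 1 to 3 hold the genes that pattern the front of the Hox-expressing hindbrain. Hoxa2, the member with the most forward limit in the embryo, had 3 counts in animal 2, 3 in animal 4 and 0 elsewhere. Hoxb1, known from a single hindbrain segment, was at 0 in all libraries. Hoxb3 had 3 counts, all in animal 4, Hoxb2 had 1 in animal 1 and 2 in animal 4, and Hoxa3 had 2 in animal 2 and 1 in animal 5. Hoxd1 and Hoxd3 had 2 counts each. Of the groups further back, Hoxa7 had 2, 1 and 2 counts in animals 2, 4 and 5, and Hoxc6, Hoxc8, Hoxd8, Hoxa9 and Hoxd13 had 1 count each. Clusters A and B held 37 and 25 counts and clusters C and D 11 and 6.

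Of the genes named above, those with the highest mean RPKM were, in order, Hoxa4 (0.0824), Hoxb5 (0.0622), Hoxa5 (0.0490), Hoxa2 (0.0444), Hoxc4 (0.0323) and Hoxb4 (0.0321). Each of these genes was at 0 in at least 1 library, so their ranges over the 5 animals all overlap and no neighbours in this order differ beyond their spread. Apart from that of Hoxb4, each of these means fell most without animal 2 or without animal 4. Without animal 2 the mean was 0.0504 for Hoxa4, 0.0355 for Hoxb5, 0.0271 for Hoxa2 and 0.0208 for Hoxc4. Without animal 4 it was 0.0527 for Hoxa4, 0.0284 for Hoxa2 and 0.00995 for Hoxa5, which had 6 of its 7 counts there. The mean of Hoxb4 moved by less than 1.5 times without any 1 animal.

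Summed over all 39 genes, the level was higher in animals 2 and 4 than in animals 1, 3 and 5. The summed counts were 7, 30, 4, 32 and 6 in animals 1 to 5, from 6, 13, 3, 12 and 5 members. Scaled by TMM (trimmed mean of M-values), these are 0.526, 1.99, 0.283, 2.06 and 0.455 CPM. The exact 95% Poisson intervals of animals 2 and 4 began at 1.34 and 1.41, above the upper ends of 1.08, 0.725 and 0.990 in animals 1, 3 and 5. The libraries carry no molecular identifiers as far as the labels say, so these intervals cover counting error only. The highest level was 7.26 times the lowest (exact binomial 95% interval 2.58 to 28.3, counting error only), and 4.52 times without animal 3. This interval does not allow for the choice of the highest and lowest libraries by their values. In bulk tissue, fewer cells with Hox RNA and less Hox RNA in each cell cannot be told apart.

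**Figure D3:**
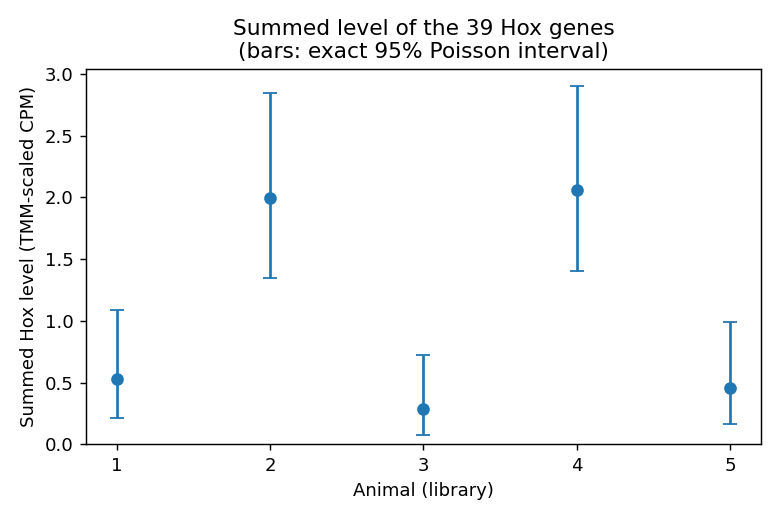
Summed level of the 39 Hox genes in each animal, in TMM-scaled CPM, with exact 95% Poisson intervals as bars. Animals 2 and 4 stand at 1.99 and 2.06, and the other animals between 0.283 and 0.526.

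Most of this difference came from members whose exons overlap other annotated genes. These 16 members had 2, 23, 2, 23 and 4 counts in animals 1 to 5. The 23 members with no overlapping gene had 5, 7, 2, 9 and 2, with Poisson intervals that overlap in all animals. Their ratio of highest to lowest was 4.09 (95% interval 0.846 to 38.9, which again does not allow for the choice of libraries). The strand setting of the counting was not stated in the sources used here, so reads of a Hox gene and of an antisense partner cannot be told apart where they overlap. The overlap itself was 3.59% of the exon bases for Hoxb5, 15.0% for Hoxa2 and 16.0% for Hoxa4, and 52.9% for Hoxb3. Of the 14 overlapping genes that are not members, 5 had counts, 32 in all, led by Haglr with 12 and Hoxaas2 with 8. Haglr overlaps Hoxd3, and Hoxaas2 overlaps Hoxa3. The only partners of Hoxb5, Hoxa4 and Hoxa2 (Hoxb5os, Gm29430 and Gm28308) were at 0 in all libraries. Hoxb3os, which overlaps Hoxb3, had 3 counts, none of them in animal 4. Whether reads of partners entered the Hox counts was not tested.

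The variability test could not be made for the Hox genes with the filter on low counts, since none of the 39 passed it. That fit (edgeR's quasi-likelihood dispersion against its abundance trend, Benjamini-Hochberg adjustment, threshold 0.05) called 45 of 14770 genes (0.305%) more variable between animals. Without the filter, 19 Hox genes entered and 0 were called, against 0.881% of 28276 genes, while 3 had an unadjusted p under 0.05, against 5.50% of those genes. These were Hoxb5 (unadjusted p = 0.00998, adjusted p = 0.449 in edgeR), Hoxa4 (0.0119 and 0.493) and Hoxa5 (0.0166 and 0.590). Over 8 edgeR fits without the filter the adjusted p ran from 0.352 to 0.897 for Hoxb5, from 0.421 to 0.744 for Hoxa4 and from 0.431 to 0.897 for Hoxa5. DESeq2 marked 1 Hox gene, Hoxa4, as a dispersion outlier, against 0.463% of genes.

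Noncoding RNAs and Evx genes of the clusters also had few counts and did not share 1 order of animals. Their summed level was 1.13, 0.863, 1.20, 1.80 and 0.228 CPM in animals 1 to 5, above the summed Hox level in animals 1 and 3 and below it in the others. Of 17 matched genes, 6 had at least 3 counts and 11 were at 0, among them Hotair, Hottip and the hosted microRNA genes Mir10a, Mir10b and Mir196b, for which an mRNA library is not suited. Haglr, an RNA of cluster D, had 1, 2, 2, 6 and 1 counts in animals 1 to 5. Hotairm1, an RNA of cluster A, had 1, 1, 1, 3 and 0, so both were highest in animal 4. Evx1 and Evx2, homeobox genes at the ends of clusters A and D, had 6, 4, 6, 7 and 1 counts and 7, 4, 5, 7 and 0. Their totals of 24 and 23 exceeded that of every Hox gene (13 at most), with mean levels of 0.116 and 0.0760 RPKM. They also exceeded that of every noncoding RNA of the list (12 at most), and the Evx genes held most of the list's counts. Unlike the summed Hox counts, those of both Evx genes were lower in animal 2 than in animals 1 and 3. This rests on few counts, and whether it exceeds counting error was not tested. No gene of this list passed the filter for the variability test.

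No cofactor or regulator of Hox genes that was tested was called more variable between animals. All 9 genes of the Pbx, Meis and Pknox families, whose proteins bind DNA together with Hox proteins, passed the filter, and 0 were called (0 with an unadjusted p under 0.05, edgeR, against 5.43% of all genes tested), and their median range between animals was 1.15-fold (1.19-fold for the 14770 genes of the fit). Pbx2 stood at 15.3 ± 0.803 RPKM and Meis2 at 11.6 ± 0.153 (SD, n = 5), whereas Meis1, the lowest, was at 0.782 ± 0.148 with a range of 1.49-fold. Of the 30 regulators of Hox clusters, 25 were tested and 0 called (2 unadjusted, Rarb and Cyp26b1), with a median range of 1.20-fold. Kmt2a, which maintains active Hox chromatin, was at 15.8 ± 0.895 RPKM, and the Polycomb genes Phc2 and Phc1, which belong to the repressive machinery, at 11.6 ± 0.342 and 11.4 ± 0.395. The Polycomb genes Ezh2 and Cbx2 were lower, at 0.931 ± 0.0729 and 0.685 ± 0.0793. The caudal activators Cdx2 and Cdx4 were at 0, and Cdx1 had 5 counts.

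Genes of brainstem neurons other than Hox differed between the same brains, with several orders of animals. Of 23 genes in the list, 9 were tested and 2 were called by edgeR, Slc6a5 and Tph2, against 0.305% of all genes tested. Slc6a5, the transporter that marks glycine-releasing neurons, had 42, 79, 39, 401 and 15 counts in animals 1 to 5 (adjusted p = 3.64e-07), highest in animal 4 and next highest in animal 2. Tph2, which makes serotonin in the raphe nuclei, had 15, 140, 71, 66 and 23 counts (adjusted p = 0.00179), highest in animal 2. Without animal 4 the adjusted p of Slc6a5 was 0.0679, and with limma on log2 RPKM it was 0.0642 for Slc6a5 and 0.115 for Tph2. The serotonin transporter Slc6a4 had 6, 117, 40, 41 and 2, and the inhibitory glycine receptor gene Glra1 58, 86, 67, 134 and 32 (edgeR adjusted p = 0.0734). Animals 2 and 4 were thus the 2 highest for Slc6a5 and Glra1, whereas for Tph2, and in RPKM also for Slc6a4, animal 3 stood between them. The transcription factor gene Egr2, which patterns embryonic hindbrain segments but is also expressed in active neurons, had a range of 1.61-fold and was not called. In the edgeR fit without the filter, Slc6a4, Slc6a2, Pax2 and Dbh had an adjusted p of 3.56e-26, 1.83e-12, 0.000111 and 0.000838. The other genes of the list that did not pass the filter were at 0.488 or more. That fit called 0.881% of 28276 genes.

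Genes of the cerebellum, whose granule and Purkinje cells arise in front of the Hox domain, were mostly highest in animal 4. Gabra6, the receptor subunit of cerebellar granule cells, had 64 counts in animal 4 and 1, 1, 0 and 0 in animals 1, 2, 3 and 5. Of 11 tested genes of the cerebellum list, 9 were highest in animal 4 and 2 in animal 2, whereas of all genes tested 20.9% were highest in animal 4 and 20.3% in animal 2. Of the 11, 3 were called (0.305% of all genes tested), Calb2, Cbln1 and Pvalb (adjusted p = 0.0444, 0.0461 and 0.0444, edgeR), all of which are also expressed outside the cerebellum. The calls depended on single animals, with an edgeR adjusted p of 0.0533 to 0.358 for Calb2 without animal 1, 2, 3 or 5, of 0.320 and 0.547 for Cbln1 without animal 4 or 5, and of 0.0510 to 0.217 for Pvalb without any 1 animal. Calb2 was highest in animal 2, at 66.2 RPKM, and Cbln1 in animal 4, at 12.7. Of 9 tested midbrain genes 7 were highest in animal 4, and 0 were called (4 unadjusted, edgeR, against 5.43% of all genes tested). En1 and En2, both highest in animal 4, belong to the cerebellum and the midbrain list alike. Of 14 forebrain patterning genes 0 were called (1 unadjusted, Nkx2-1). The genes of the cerebellum list that did not pass the filter were Gabra6, Fat2, Cbln3, Ppp1r17 and Pcp2, all highest in animal 4. In the edgeR fit without the filter their adjusted p was 5.69e-26, 2.38e-23, 1.63e-15, 0.000349 and 0.00484. That fit called 0.881% of 28276 genes.

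**Figure D4:**
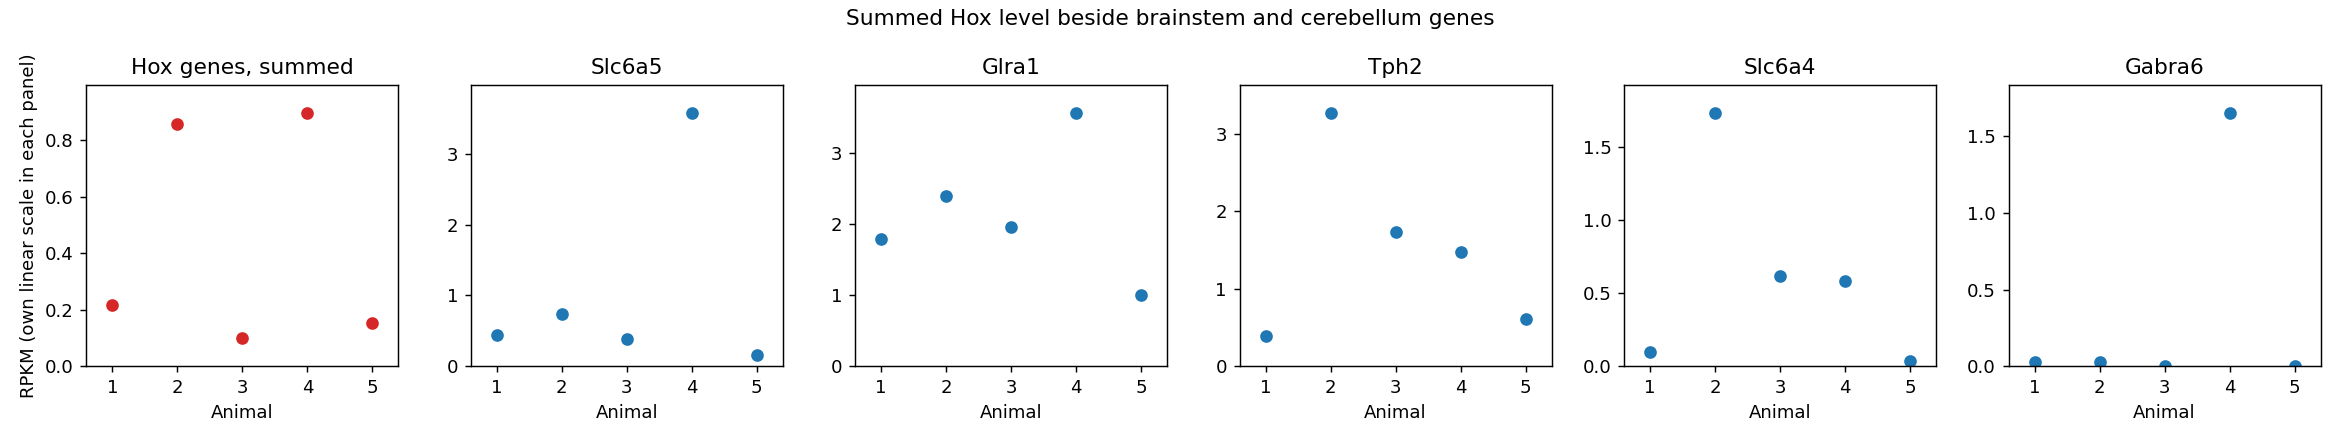
Summed Hox level (red) and the levels of Slc6a5, Glra1, Tph2, Slc6a4 and Gabra6 (blue) in the 5 animals, in RPKM, each panel with its own linear scale from 0. Hox RNA is high in animals 2 and 4, Gabra6 in animal 4 alone at 1.65 RPKM, and Tph2 and Slc6a4 are highest in animal 2.

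Markers of other cells that can hold Hox RNA were set beside the summed Hox level. The 6 leukocyte markers, a lineage whose progenitors express cluster A genes, summed to 2.44, 4.11, 2.22, 4.44 and 2.20 RPKM in animals 1 to 5, so they too were highest in animals 2 and 4, whereas in CPM (6.39, 7.70, 7.93, 9.19 and 7.28) animal 3 lay above animal 2. S100a8 and S100a9 made up most of the RPKM sum, whereas in counts Ptprc led with 424, against 46 for S100a8 and 65 for S100a9. In all, 0 of the 6 were at 0 in all libraries, and Ly6g had 2 counts, both in animal 4. The 6 choroid plexus markers, led by Ttr, summed to 464, 491, 505, 504 and 511 RPKM and the 6 meningeal fibroblast markers to 490, 371, 431, 429 and 427, both without the Hox order. The 4 oligodendrocyte markers, at 723, 734, 722, 870 and 700 RPKM, were highest in animals 4 and 2, but animal 2 was below animals 1 and 3 in CPM. The 5 erythroid markers were highest in animal 3, where Hox counts were lowest. The 4 endothelial markers summed to 65.0, 61.5, 68.7, 65.3 and 67.1 RPKM in animals 1 to 5, lowest in animal 2. The part of these cells in the Hox counts was not tested.

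Among the 14770 genes tested, Pomc was the nearest to the summed Hox profile, by the root mean square distance of log2 deviations over the 5 animals. Pomc (chromosome 12, 3954951 to 3960642), the hormone precursor of the arcuate nucleus and pituitary, had 21, 70, 29, 71 and 21 counts and a distance of 0.458, against 0.989 for a gene with no deviation and a median of 0.992. Asb4, a gene of hypothalamic neurons (0.583), and the homeobox gene Irx2 (0.596) followed, and the other 7 of the nearest 10 were Samsn1, Apoc1, Gbp4, BC024139, AI467606, Tdrd5 and Gm44103. None of the 10 was called more variable by edgeR (adjusted p 0.0890 for Pomc), and no gene of the brainstem list was among them. Only the 9 of 23 brainstem genes that passed the filter could be ranked, and of these Glra1 ranked 27 and Slc6a5 1325. The distance also takes in the size of the deviations, and the range of Slc6a5 was 20.3-fold.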

How the data were processed

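The submitters' processing notes name build GRCm38 and the tools featureCounts 1.4.6-p4, STAR 2.4.1d and CASAVA 1.7, with annotation release, strand setting and treatment of multi-mapped reads not given in the sources used here. Raw whole-number counts per gene were deposited by the authors. Their deposited RPKM values divide each row's entries by the 5 library totals in rotation, since 1 gene length then explains all entries of 100% of the 28276 genes with counts, against 11.6% with own totals. RPKM values here were therefore recomputed from counts, each library's own total and the union exon length (GENCODE M21), which lay within the recovered bounds for all 19 Hox genes with counts. Exon overlap and shared words of 50 bases, taken every 5 bases, were computed from the same annotation.

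Of 47729 genes, 47310 were named by Ensembl ID. The variability fit used edgeR 4.0.16 under R 4.3.3, with filterByExpr, TMM factors, a robust glmQLFit and an intercept as its design. Each quasi-dispersion was divided by its trend and set against an F distribution, upper tail. The procedure with the filter was tested on simulated data, in which only genes with far more counts than the Hox genes were changed. That test does not cover the Hox genes. DESeq2 1.42.0 and limma 3.58.1 on log2(RPKM + 0.1) or log2(RPKM + 1) served as alternatives. log2 CPM used a prior count of 2. The members, lists and tests were chosen with earlier results of these data known. Full values were given for members with at least 10 counts, and of each list the called and the 3 most abundant genes were to be named. Slc6a4, Gabra6, S100a8, S100a9, Ly6g, Haglr, Ptprc, Meis1, Ezh2, Cbx2, the Cdx genes and genes with only an unadjusted p under 0.05 were named after their values were seen. The same holds for Slc6a2, Dbh, Pax2, Fat2, Cbln3, Ppp1r17 and Pcp2. A few genes and sequences are not reported here, although counts and sums over all members and lists hold them.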

Additional observations from a re-analysis of the deposited data

Results flagged for a closer look

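The share of the summed Hox level in paralog groups 1 to 5 was 30.2% in animal 5, far from the 87.2% to 100% of the other animals by Dixon's gap test, which marks about 5% of groups by chance. It rests on 2 of 6 counts (33.3%, exact 95% binomial interval 4.33% to 77.7%, counting error only), and the other 4 counts of animal 5 were from Hoxa7, Hoxc8 and Hoxd8. The interval for animal 3, from 3 of 4 counts, was 19.4% to 99.4%, so these libraries are too thin to order by this share.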

How the results depend on the processing

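The number of Hox genes detected was 12 at a floor of 3 counts, 19 at 1 count, 2 at 10 counts and 0 with a count asked of every library, and 8 to 12 without 1 animal. No Hox gene entered the limma fits or an edgeR fit with the filter, so their counts of 0 Hox calls say nothing of stability. Without the filter, 19 entered edgeR (17 to 19 without 1 animal) and 0 were called in each of these fits, while DESeq2 marked 1 of 19. Over all genes, 45 were called with the filter, 249 without it, 131 by DESeq2, 19 with a prior that is not robust, 10 and 6 by limma with 0.1 and 1 added, and 18 to 44 without 1 animal. The ratio of highest to lowest summed Hox level was 7.26, against 7.26 with DESeq2 size factors, 7.30 with library totals alone, 9.07 on recomputed and 10.2 on deposited RPKM, 6.13 without Hoxb5, 4.09 without members whose exons overlap other genes and 4.52 to 7.26 without 1 animal. The share of groups 1 to 5 stayed between 74.4% and 80.6% under other settings and was 75.8% to 93.2% without 1 animal. The fits without the filter in which another choice also changed, the ratio on recomputed RPKM and that without overlapping members were chosen after seeing the data. No paired analysis was possible because all 5 samples belong to 1 group. Depth limits each single gene here.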
